A study of Sus scrofa with 6 samples.

Results

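Heat shock proteins and DNAJ proteins are molecular chaperones and their partners. They were taken here as every listed protein-coding gene whose pig symbol begins with HSPA, HSPB, HSPD, HSPE, HSPH, HSP90 or DNAJ. That gave 63 of the 21280 genes in the deposited table, of which 14821 had a symbol. The 63 comprise 11 HSPA genes (HSP70 family), 5 small heat shock proteins (HSPB), 3 genes of the HSPD, HSPE and HSPH families, 3 HSP90 genes and 39 DNAJ genes (4 DNAJA, 10 DNAJB and 25 DNAJC). The symbol rule also caught HSPBP1 and HSPBAP1, which are not small heat shock proteins. The inducible HSP70 genes HSPA1A and HSPA1B were not matched to an identifier under those symbols, and HSP70.2, which RefSeq lists with both names as synonyms, is given beside the members and counted in none of the totals.

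The study compared brain RNA of wild boar (3 libraries) with that of Rongchang pigs, a domestic breed from China (3 libraries). All 6 libraries were labelled as female and 2 years old. Wild boar samples carry the tissue label brain, domestic pig samples the label cerebrum, the series title names prefrontal cortex, and the domestic pig libraries were marked as re-analysed. Breed, source project and labelled tissue therefore fall on the same 3 libraries against the same 3 and cannot be told apart. The labels number the libraries but do not say more about separate animals. The p-values therefore set a group difference against the spread between these samples within a group. The test estimates that spread in part or wholly from all tested genes.

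As background, chaperones bind unfolded stretches of other proteins and help them fold, assemble, cross membranes or be degraded. HSP70 proteins do so in cycles of ATP hydrolysis that DNAJ proteins (also called HSP40) start and nucleotide exchange factors end, and HSP90 takes over part of their clients. Some members, such as HSPA8 and HSP90AB1, are made at all times, and in neurons HSPA8 also strips clathrin from endocytic vesicles. Others are switched on by the transcription factor HSF1 after heat or other protein-damaging stress, and another set, in the endoplasmic reticulum (ER), is switched on by the unfolded protein response.

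The values are TPM, an abundance that is scaled for transcript length and for the library. The listed genes summed to between 17.17% and 40.88% of 1000000 in a library, and between 17862 and 18497 genes lay above 0. TPM keeps no depth, so the reads behind a gene's value are unknown. Gene levels below are rescaled TPM, in which each library was divided by its median ratio to the others. Fold changes of genes are wild boar against domestic pig on the scale of log2(rescaled TPM + 1), which understates the change of low genes. Those of circular RNAs are on log2(deposited TPM + 0.045), without rescaling. A gene was tested when its deposited TPM reached 1 in at least 3 libraries, which 58 members did, and it passed at an adjusted p under 0.05 over all 11752 tested genes (limma with Benjamini-Hochberg adjustment). On the deposited scale the median log2 fold change of all tested genes was -0.41, against 0.00 after rescaling. Each direction of a gene below is therefore relative to that shift. These are bulk samples, in which fewer cells of a type and less RNA per cell cannot be told apart.

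After rescaling, 7 members were higher in wild boar, 7 were lower and 44 did not pass. The 7 higher were HSPB6, HSPB1, HSPB8, DNAJC19, DNAJC5, DNAJA3 and HSPBP1, and the 7 lower were DNAJC25, DNAJC2, HSPA4L, DNAJC28, DNAJC13, DNAJB4 and HSP90B1. The share that passed was 24.1% of tested members, beside 19.6% of all tested genes (8.59% higher and 11.0% lower), and the median log2 fold change of members was -0.04, beside 0.00 for all tested genes. On the deposited scale only DNAJC25 passed, lower in wild boar, and 0 members were higher by limma. The share that passed there was 1.6% of all tested genes (0.136% higher and 1.46% lower). An unadjusted p under 0.05 in that limma fit was reached by 12 of 58 tested members, beside 2091 of all 11752 tested genes. Calls of 5 members (DNAJC19, DNAJC2, DNAJC25, DNAJC5 and HSPA4L) were kept when any 1 library was left out, and those of 9 were lost without at least 1 library.

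The abundant constitutive chaperones did not pass. HSPA8, the constitutive cytosolic HSP70, stood at 806, 715 and 778 rescaled TPM in wild boar 1 to 3 and at 752, 630 and 929 in domestic pig 1 to 3, a log2 fold change of 0.01 (SE 0.217, adjusted p 0.983). Its groups overlapped, with domestic pig 3 the highest library and domestic pig 2 the lowest. It ranked 30 among all listed genes by mean rescaled TPM, followed among members by HSP90AB1 at rank 68, HSP90AA1 at 74, HSPE1 at 131 and DNAJA1 at 140.

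HSP90AB1, the constitutive cytosolic HSP90, stood at 367, 368 and 340.4 in wild boar and at 345, 307 and 358 in domestic pig, with a log2 fold change of 0.09 (adjusted p 0.696). Its groups overlapped, and domestic pig 2 was again the lowest library. HSPA4, an HSP110-family exchange factor for HSP70, lay without overlap below the domestic pig range, at 47.0, 43.5 and 53.1 against 60.2, 58.1 and 58.3. Its log2 fold change of -0.30 missed the threshold (adjusted p 0.0967, or 0.0459 with quantile normalization). Across the 6 tested members of the constitutive HSP70 and HSP90 list, log2 fold changes ran from -0.30 to 0.09 with a median of 0.00, and HSPA14, the partner of DNAJC2 at the ribosome, was at -0.17 (adjusted p 0.376).

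Taken as a share, which needs no rescaling between libraries, all 63 members made up 1.21%, 1.03% and 1.20% of listed TPM in wild boar, against 1.23%, 1.18% and 1.18% in domestic pig. The 5 most abundant members held 58.7% to 60.1% of the chaperone TPM in wild boar and 56.5% to 59.2% in domestic pig. HSPA8 alone held 25.2%, 23.4% and 24.2% in wild boar, against 22.7%, 21.3% and 26.5% in domestic pig, so these shares overlapped between the groups.

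Of the 14 names on the heat-inducible list, 12 matched a gene and 11 were tested. HSPB1 and HSPB8 were higher in wild boar, HSPA4L and DNAJB4 were lower, and 7 did not pass. Over all tested genes 8.59% were higher and 11.0% lower, and these shares stand as background to each list of genes below. The median log2 fold change of the 11 was -0.19 after rescaling and -0.54 on the deposited scale.

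HSPB1 (HSP27, ENSSSCG00000039962), a small heat shock protein that holds unfolding proteins in a soluble state, stood at 12.1, 17.8 and 12.8 in wild boar and at 7.34, 8.29 and 10.3 in domestic pig. Every wild boar library lay above every domestic pig library. The means were 14.2 ± 3.11 and 8.63 ± 1.501 (SD, n = 3 each), with a log2 fold change of 0.66 (SE 0.168, adjusted p 0.0314). HSPB8 (ENSSSCG00000009844), which works with BAG3 in delivering damaged proteins to autophagy, stood at 29.0, 29.2 and 36.0 against 19.9, 21.7 and 24.7. Its groups did not overlap either, and its log2 fold change was 0.49 (SE 0.130, adjusted p 0.0351). On the deposited scale HSPB1 was at 0.19 (adjusted p 0.808) and HSPB8 at -0.00016 (adjusted p 1.00), so the direction of HSPB8 was lost there. HSPB1 missed the threshold when wild boar 2 or 3 or domestic pig 1 or 2 was left out (adjusted p 0.0608 to 0.0955), and HSPB8 missed it without any 1 library other than domestic pig 3 (0.0607 to 0.108).

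HSPA4L (ENSSSCG00000009077), an HSP110-family protein that releases ADP from HSP70, stood at 27.2, 27.7 and 29.1 in wild boar and at 42.3, 38.6 and 42.8 in domestic pig. The 3 wild boar libraries lay close together and below all 3 domestic pig libraries. The means were 28.0 ± 0.954 and 41.2 ± 2.31 (SD, n = 3 each), a log2 fold change of -0.54 (SE 0.101, adjusted p 0.0126). DNAJB4 (ENSSSCG00000003766), a cytosolic HSP40 induced by heat, stood at 22.7, 16.5 and 19.4 against 29.8, 26.5 and 26.8. Its groups were apart by less, and its log2 fold change of -0.49 (SE 0.131, adjusted p 0.0353) missed the threshold when wild boar 2 or 3 or domestic pig 1 or 3 was left out (adjusted p 0.0667 to 0.104).

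The best known heat-induced chaperones were among the 7 that did not pass. HSP90AA1, the inducible cytosolic HSP90, stood at 292, 369 and 342 in wild boar and at 329, 381 and 317 in domestic pig, with a log2 fold change of -0.04 (adjusted p 0.896). HSPH1, an HSP110-family chaperone, stood at 102, 93.8 and 110 against 110, 138 and 128 (-0.29, adjusted p 0.157). DNAJB1, the main heat-induced HSP40, stood at 15.0, 21.7 and 19.1 against 16.02, 18.3 and 18.7 (0.06, adjusted p 0.804). The groups overlapped for HSP90AA1 and DNAJB1, and those of HSPH1 were apart only by the gap from 109.59 in wild boar 3 to 109.64 in domestic pig 1.

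DNAJA1, a cytosolic HSP40, was lower in every wild boar library (184, 178.5 and 186) than in any domestic pig library (234, 198 and 246), but at a log2 fold change of -0.30 it did not pass (adjusted p 0.164, or 0.0227 with quantile normalization). HSPD1 and HSPE1 encode HSP60 and its lid HSP10, which fold proteins in the mitochondrial matrix. HSPD1 stood at 55.1, 63.1 and 58.1 against 72.9, 64.3 and 64.2 (-0.19, adjusted p 0.269), without overlap. HSPE1 stood at 259, 207 and 238 against 246, 156 and 229 (0.18, adjusted p 0.547), with overlap and with domestic pig 2 the lowest.

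HSPA6, a strictly inducible HSP70 in human cells, was near the filter in all libraries, at 1.81, 1.78 and 1.27 in wild boar, against 2.72, 1.98 and 1.51 in domestic pig (-0.22, adjusted p 0.365). HSP70.2, outside the symbol rule, stood at 15.2, 18.0 and 13.9 against 20.9, 21.3 and 11.6 (-0.14, SE 0.218, adjusted p 0.669), with domestic pig 3 below every wild boar library. Its TPM was 0.0178 to 0.0252 of that of HSPA8 in wild boar and 0.0125 to 0.0338 in domestic pig. The HSP70 genes are near-identical copies of each other in part, so the authors' counting could have split their reads, and the values of HSPA6, HSPA1L and HSP70.2 are uncertain.

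**Figure D1:**
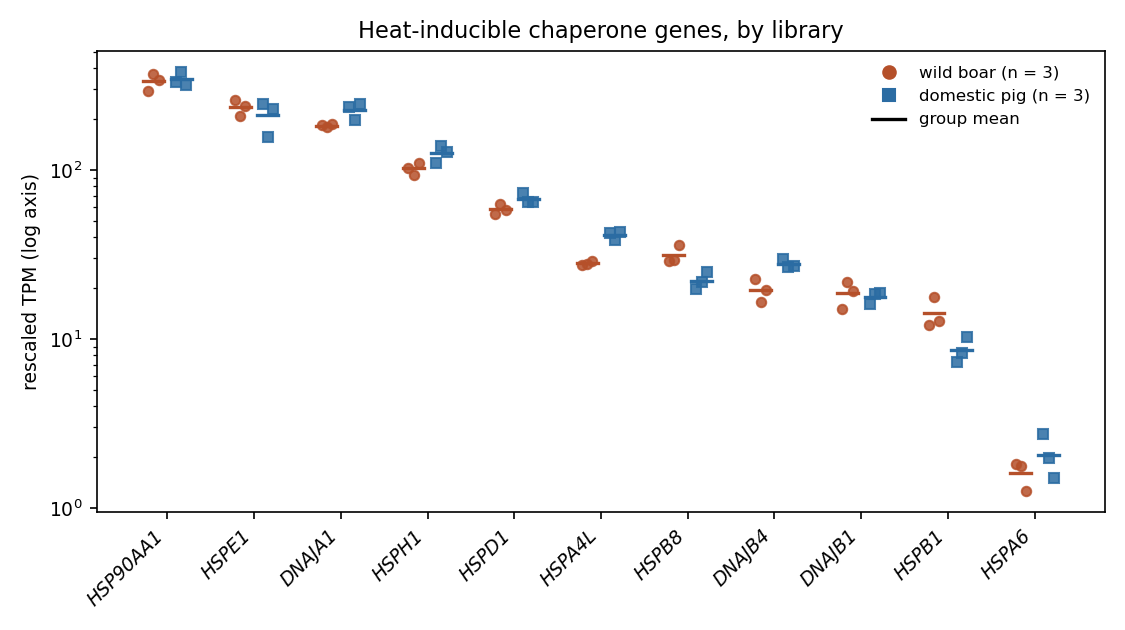
Rescaled TPM (log axis) of the 11 tested heat-inducible chaperone genes, with each library as a point, wild boar as circles, domestic pig as squares, and group means as bars (n = 3 each). HSPB1 and HSPB8 sit higher in wild boar (on the deposited scale HSPB8 is at a log2 fold change of -0.00016), HSPA4L and DNAJB4 sit lower, and HSP90AA1, HSPE1 and DNAJB1 overlap.

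A further small heat shock protein had the largest fold change among tested members. HSPB6 (HSP20, ENSSSCG00000023498), which is abundant in smooth and heart muscle, stood at 3.06, 4.38 and 4.87 in wild boar and at 0.896, 2.08 and 1.38 in domestic pig. The lowest wild boar library exceeded the highest domestic pig library. The means were 4.10 ± 0.933 and 1.45 ± 0.596 (SD, n = 3 each), with a log2 fold change of 1.07 (SE 0.201, adjusted p 0.0128), against 0.70 on the deposited scale (adjusted p 0.248). With wild boar 2 left out its adjusted p was 0.0501, just above the threshold.

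Thus all 3 tested HSPB genes passed as higher after rescaling, beside 8.59% of all tested genes. On the deposited scale 0 passed (limma), and HSPB8 was at -0.00016. Together the 5 HSPB genes held 1.40%, 1.69% and 1.68% of chaperone TPM in wild boar, against 0.858%, 1.09% and 1.05% in domestic pig. This share does not depend on scaling and did not overlap between the groups. It restates the values of the same 3 genes that had passed, so it is not separate support. CRYAB, the lens and glial small heat shock protein also called HSPB5, lies outside the symbol rule and outside that share, though it was more abundant than each HSPB gene. It stood at 65.2, 168 and 105 against 86.5, 100.5 and 113, with a log2 fold change of 0.08 (SE 0.297, adjusted p 0.878) and with the widest spread inside wild boar. HSPB3 stayed at 0.14 to 0.39, and HSPB9 was listed at 0 in wild boar 3 and domestic pig 3 and reached 0.0756 at most, so neither was tested.

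Some markers of vessel walls, blood and other cell types also passed as higher in wild boar, beside 8.59% of all tested genes. Of 10 mural cell and fibroblast markers, 3 were higher after rescaling (ACTA2, TAGLN and MGP), 0 were lower and 7 did not pass, among them the pericyte marker RGS5 at a log2 fold change of -0.44. Their summed rescaled TPM ran from 96.3 to 144 in wild boar and from 71.5 to 86.7 in domestic pig. Of 5 tested endothelial markers, CLDN5 was higher and 4 did not pass, with sums of 24.2 to 35.9 against 16.1 to 17.9. All 4 tested red blood cell markers were higher, with sums of 448 to 1319 against 87.0 to 227. Of 6 astrocyte markers ALDOC was higher and 5 did not pass, and of 6 microglia markers C1QA was higher and 5 did not pass. For myelinating oligodendrocytes 0 of 5 tested markers passed by limma. On the deposited scale 0 mural, 0 endothelial, 0 astrocyte and 0 microglia markers passed by limma, and 2 red blood cell markers were higher. None of these markers was at 0 in every library, and their part in the HSPB result was not tested.

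In the ER, the chaperones induced by unfolded proteins gave 0 higher, 1 lower and 6 that did not pass out of 7 tested. Among all tested genes 11.0% were lower. The median log2 fold change of the 7 was -0.15 after rescaling and -0.65 on the deposited scale. HSP90B1 (GRP94, ENSSSCG00000000849), the HSP90 of the ER lumen, stood at 86.5, 82.9 and 84.0 in wild boar and at 126, 98.6 and 122 in domestic pig. Wild boar libraries lay below all domestic pig libraries, with domestic pig 2 the nearest. Its log2 fold change was -0.44 (SE 0.133, adjusted p 0.0492), and the call was lost without any 1 library other than domestic pig 2 (adjusted p 0.113 to 0.140).

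HSPA5 (BiP), the HSP70 of the same compartment and the main target of the unfolded protein response, stood at 94.8, 87.1 and 93.1 against 102, 93.8 and 110 (-0.15, adjusted p 0.399), with overlapping groups. The ratio of HSP90B1 to HSPA5 needs no scaling, but the pair was chosen after the values were seen. It was 0.912, 0.952 and 0.902 in wild boar, against 1.24, 1.05 and 1.11 in domestic pig. HSPA13, a microsomal relative of HSP70, stood at 52.6, 44.7 and 53.1 against 65.6, 51.8 and 64.4, with overlap, a log2 fold change of -0.26 (adjusted p 0.190). Of 15 tested genes of the unfolded protein response itself, 0 passed by limma in either direction, beside 19.6% of all tested genes. The median log2 fold change of the 15 was -0.04.

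Among the 7 other ER-linked DNAJ genes, DNAJC25 passed and 6 did not, beside 19.6% passing of all tested genes. DNAJC25 (ENSSSCG00000005460), a DNAJ protein with membrane-spanning segments, stood at 1.88, 1.47 and 1.79 in wild boar and at 3.59, 3.64 and 3.67 in domestic pig. All 3 wild boar libraries lay far below the domestic pig libraries, which differed little from each other. The means were 1.71 ± 0.214 and 3.64 ± 0.0409 (SD, n = 3 each), a log2 fold change of -0.78 (SE 0.107, adjusted p 0.00602). It was the sole member to pass on the deposited scale as well, at -1.12 (adjusted p 0.0485). The ratio of DNAJC25 to DNAJB12, an ER membrane DNAJ protein, was 0.293 to 0.395 in wild boar and 0.739 to 0.808 in domestic pig, while DNAJB12 itself stood at 4.75, 5.02 and 4.90 against 4.65, 4.51 and 4.97. This pair too was chosen after the values were seen. DNAJC1, which binds ribosomes from the ER membrane, was at -0.36 (adjusted p 0.123).

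**Figure D2:**
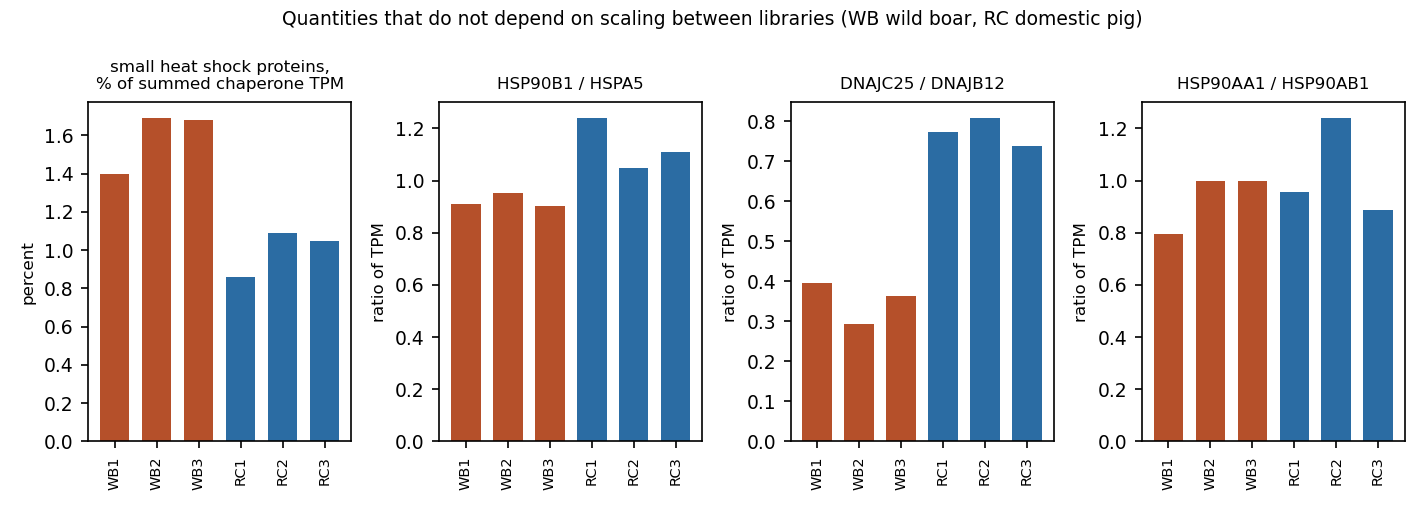
Share of chaperone TPM held by the HSPB genes (percent) and 3 ratios of TPM between chaperone genes, 1 bar per library (WB wild boar, RC domestic pig), none of which depends on scaling between libraries. The HSPB share, HSP90B1 over HSPA5 and DNAJC25 over DNAJB12 do not overlap between the groups, and HSP90AA1 over HSP90AB1 does (0.795 to 1.00 against 0.887 to 1.24). The ratios were chosen after the values were seen, and HSP90B1, DNAJC25 and the tested HSPB genes had passed, so the lack of overlap is not separate support.

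Of 5 tested DNAJC genes of mitochondria, DNAJC19 was higher, DNAJC28 was lower and 3 did not pass, beside 19.6% passing of all tested genes. Those 3 were DNAJC4 at 0.16, DNAJC11 at 0.016 and DNAJC15 at -0.0048. The median log2 fold change of the 5 was 0.02. DNAJC19 (ENSSSCG00000011770), a part of the motor that pulls proteins through the inner membrane, stood at 38.7, 38.4 and 40.01 in wild boar and at 28.9, 21.8 and 23.0 in domestic pig. Every wild boar library was higher, and the means were 39.0 ± 0.876 and 24.6 ± 3.82 (SD, n = 3 each). The log2 fold change was 0.66 (SE 0.125, adjusted p 0.0132) after rescaling and 0.17 (adjusted p 0.833) on the deposited scale.

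The constitutive DNAJA and DNAJB list had 1 higher, 0 lower and 6 that did not pass, beside 8.59% higher among all tested genes. The list had a median of 0.05. Its 1 higher gene was DNAJA3 (Tid1, ENSSSCG00000022874), the partner of the mitochondrial HSP70 HSPA9. It stood at 12.9, 10.6 and 12.8 against 7.995, 7.79 and 8.40, again without overlap. Its log2 fold change was 0.53 (SE 0.110, adjusted p 0.0170), and it missed the threshold when wild boar 1 or 3 or domestic pig 1 was left out (adjusted p 0.0535 to 0.0624). HSPA9 itself overlapped between the groups, at 49.6, 48.1 and 56.7 against 48.6, 54.2 and 46.8. Relative to HSPA9, DNAJC19 was at 0.706 to 0.798 in wild boar and 0.403 to 0.595 in domestic pig, and DNAJA3 at 0.221 to 0.259 and 0.144 to 0.180. Both ratios were chosen after the values were seen. DNAJC28 (ENSSSCG00000028192) went the other way, at 1.595, 1.80 and 2.07 against 3.08, 3.34 and 2.63. Its log2 fold change was -0.51 (SE 0.120, adjusted p 0.0233), lost when wild boar 1 or 2 or domestic pig 1 was left out (adjusted p 0.0717 to 0.0741).

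Of 4 tested DNAJC genes of vesicles and endocytosis, DNAJC5 was higher, DNAJC13 was lower and DNAJC6 (0.05) and DNAJC5B (-0.12) did not pass. Among all tested genes 19.6% passed. DNAJC5 (cysteine string protein, ENSSSCG00000031602), which keeps SNARE proteins folded on synaptic vesicles, stood at 18.3, 15.9 and 16.9 in wild boar and at 11.8, 11.0 and 11.5 in domestic pig. The domestic pig libraries were close together and all below wild boar. The means were 17.04 ± 1.20 and 11.4 ± 0.389 (SD, n = 3 each), with a log2 fold change of 0.53 (SE 0.1005, adjusted p 0.0128) after rescaling and 0.06 (adjusted p 0.941) on the deposited scale.

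DNAJC13 (RME-8, ENSSSCG00000011628), which acts in recycling from endosomes, stood at 7.09, 6.36 and 7.11 against 9.85, 11.6 and 9.18, without overlap. It gave -0.51 (SE 0.115, adjusted p 0.0214) and was lost without any 1 wild boar library or domestic pig 1 (0.0564 to 0.0727). DNAJC6 (auxilin), which brings HSPA8 to clathrin-coated vesicles in neurons, did not pass and overlapped, at 74.0, 68.5 and 87.9 against 69.9, 75.9 and 75.1. The ratio of DNAJC5 to DNAJC6, chosen after the values were seen, was 0.193 to 0.247 in wild boar and 0.145 to 0.169 in domestic pig. Of 8 neuronal markers, SLC17A7 (0.80) and CAMK2A (0.85) were higher, 0 were lower and 6 did not pass. Over all tested genes 8.59% were higher. Of the 8, 4 lay above 0 and 4 below, with GAD2 the lowest at -0.28. Summed rescaled TPM of the 8 was 1492 to 1824 against 1456 to 1829, and 0 markers were at 0 in every library. Their part in the DNAJC5 result was not tested.

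DNAJC2 (ENSSSCG00000015423), which sits at the ribosome exit with HSPA14 and also binds chromatin, stood at 8.22, 8.89 and 8.47 in wild boar and at 15.8, 12.3 and 14.8 in domestic pig. Wild boar libraries lay in a narrow band below all domestic pig libraries. The means were 8.53 ± 0.336 and 14.3 ± 1.83 (SD, n = 3 each), a log2 fold change of -0.68 (SE 0.117, adjusted p 0.00963). The list of nuclear and ribosomal DNAJC genes had 0 higher, 1 lower and 3 that did not pass, beside 11.0% lower among all tested genes. Of those 3, DNAJC9, a histone chaperone, was at -0.18 (adjusted p 0.320).

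Of the 2 genes that the prefix brought in, HSPBP1 (ENSSSCG00000003288), an exchange factor for HSP70, stood at 8.64, 9.93 and 8.23 against 6.25, 5.97 and 6.37. Its groups did not overlap, and its log2 fold change was 0.46 (SE 0.107, adjusted p 0.0227), lost without any 1 wild boar library or domestic pig 1 (0.0517 to 0.0757). HSPBAP1 was at -0.30 (adjusted p 0.109). Also without a call were DNAJC7 at -0.10 (adjusted p 0.512), DNAJC24 at -0.18 (0.388) and DNAJB13, of the axoneme of sperm and cilia, at -0.31 (0.122).

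**Figure D3:**
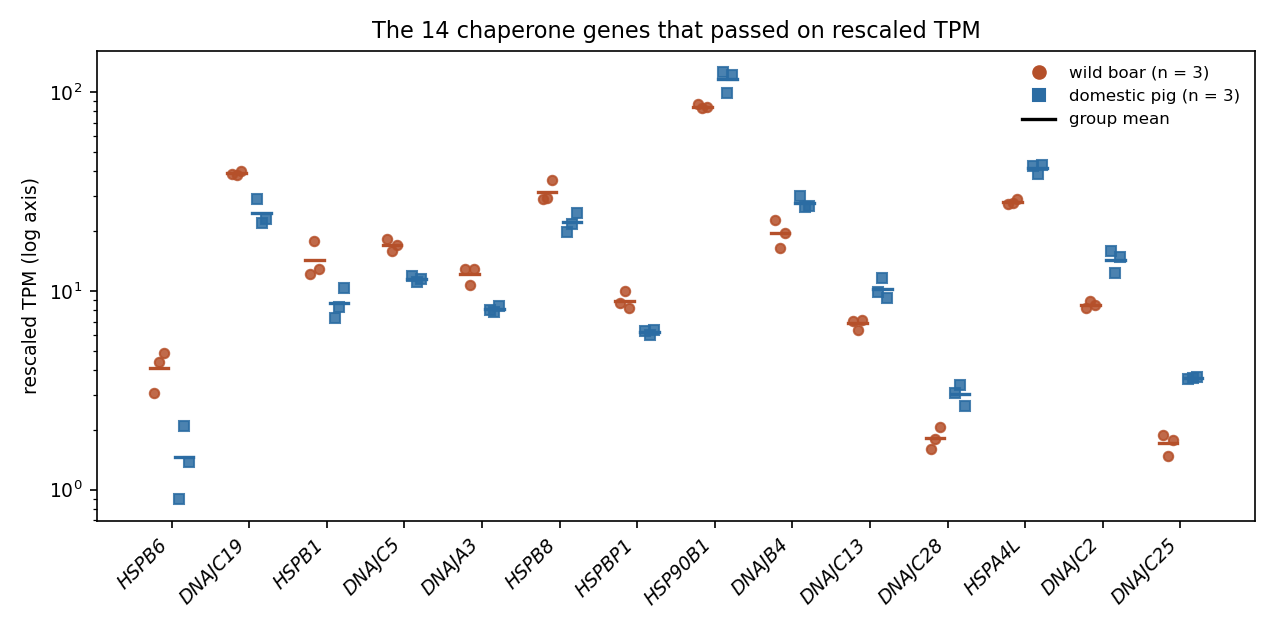
Rescaled TPM (log axis) of the 14 chaperone genes that passed, with each library as a point and group means as bars (n = 3 each). The groups do not overlap in any of the 14, but the genes were picked by adjusted p on these same values, so this adds no support. Some members that did not pass, such as DNAJA1 and HSPA4, do not overlap either. On the deposited scale DNAJC25 alone passed and HSPB8 was at a log2 fold change of -0.00016.

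The tested members outside the naming rule given below, 26 in number, had log2 fold changes between -0.64 and 0.23 and adjusted p of 0.152 or more. Some of them, such as HSPA5, HSPA9 and DNAJC6, were described above. The lowest of them was DNAJB5, named after its values were seen, at 7.22, 6.78 and 5.37 in wild boar, against 8.31, 6.88 and 19.96 in domestic pig (SE 0.320, adjusted p 0.183). Domestic pig 3 stood apart from the other 5 libraries. The median spread of log2 values between libraries of a group was 0.137 for tested members, beside 0.157 for all tested genes and 0.163 for the heat-inducible members. Of the 5 members under the filter, HSPA12B stayed at 0.64 to 0.80, HSPA1L at 0.26 to 0.58 and DNAJC22 at 0.19 to 0.59.

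**Figure D4:**
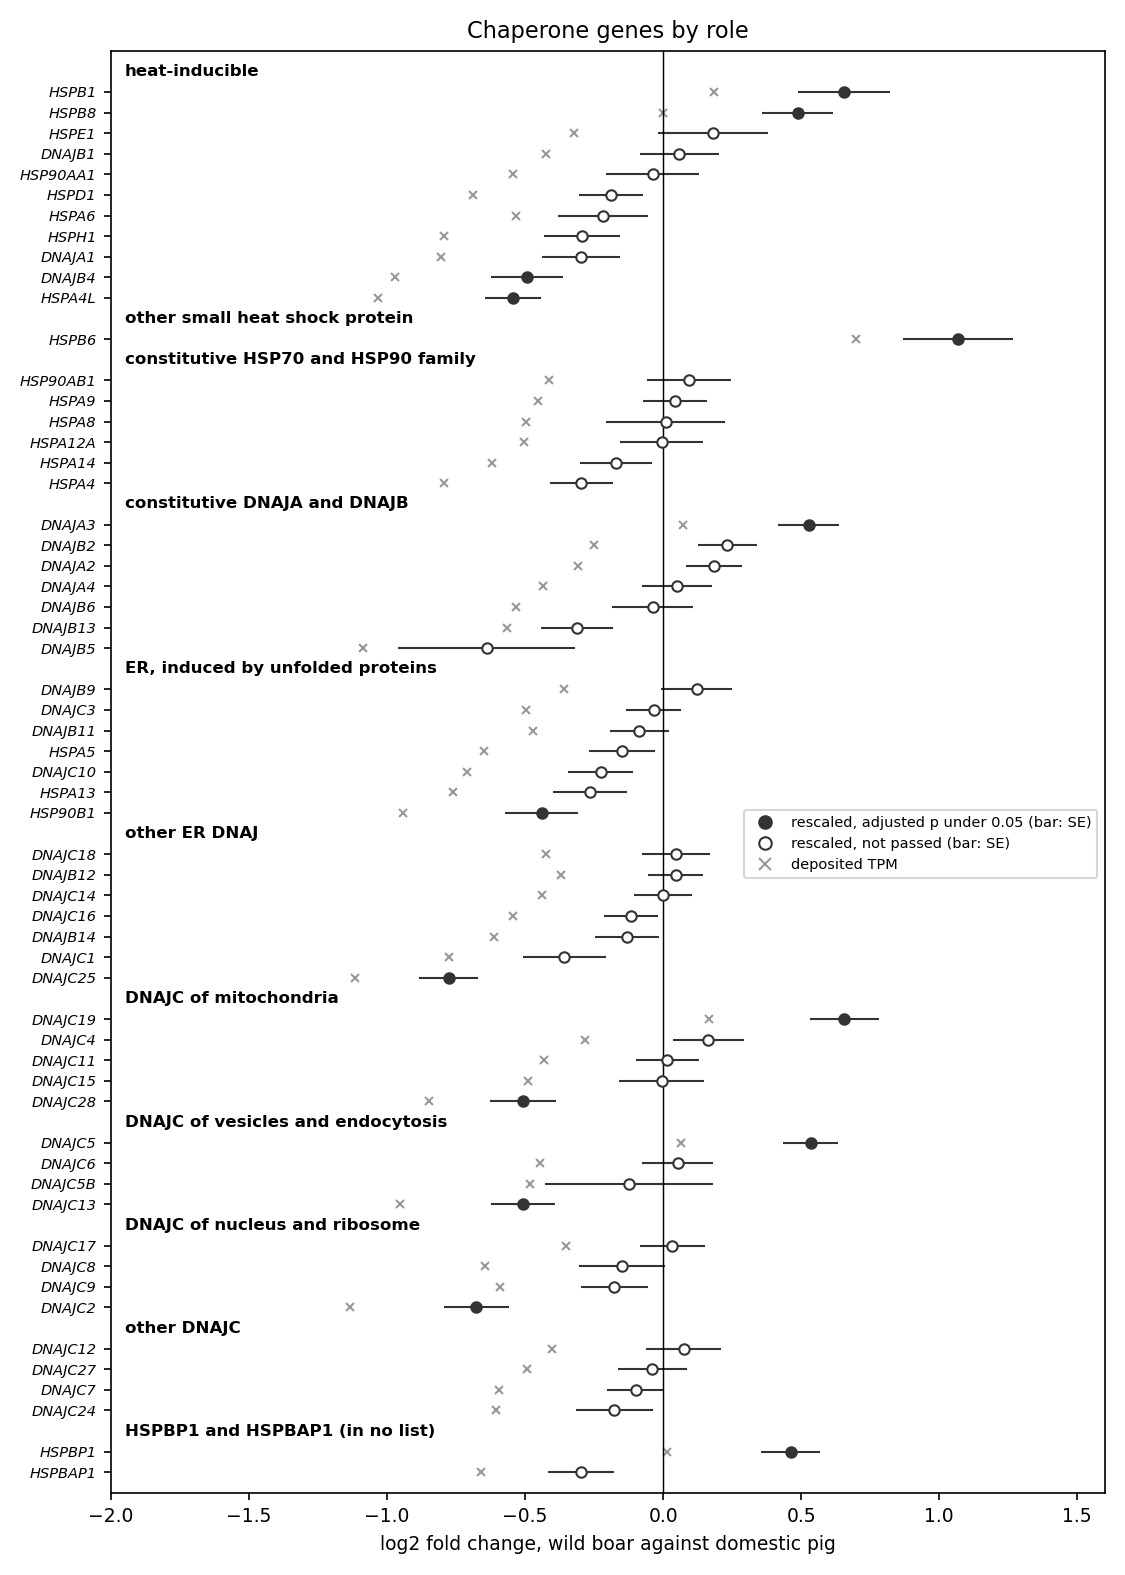
Log2 fold change of wild boar against domestic pig for the 58 tested chaperone genes, ordered by role, with the standard error as a bar. Filled points passed after rescaling, open points did not, and crosses give the deposited scale, on which the members' median is -0.50 and HSPB8 falls to -0.00016.

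Chaperones act with co-chaperones and under transcription factors that were listed separately. Of 75 names on 6 such lists, 67 were tested, 6 were higher, 1 was lower and 60 did not pass. Over all tested genes the share that passed was 19.6% (8.59% higher and 11.0% lower), so these lists did not pass more often. Their median log2 fold change was 0.12 after rescaling and -0.32 on the deposited scale, where 0 passed by limma, beside 1.6% of all tested genes. CHORDC1, a heat-inducible co-chaperone of HSP90, stood at 15.4, 14.3 and 17.9 in wild boar and at 23.8, 25.2 and 29.1 in domestic pig, without overlap (-0.68, SE 0.124, adjusted p 0.0114). SQSTM1 (p62), an autophagy receptor for ubiquitinated proteins, stood at 71.5, 77.3 and 74.7 against 47.2, 46.3 and 47.8, also without overlap (0.65, SE 0.103, adjusted p 0.00796). Both calls were kept when any 1 library was left out, and on the deposited scale CHORDC1 was at -1.16 and SQSTM1 at 0.15.

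HSF1, the factor that switches on heat shock genes, stood at 2.11, 2.78 and 2.602 in wild boar and at 1.31, 1.76 and 1.61 in domestic pig. Its groups did not overlap, and it was the 1 gene of 4 tested on the heat shock factor list to pass, at 0.45 (SE 0.124, adjusted p 0.0384), and the call was lost when wild boar 2 or 3 or domestic pig 1 or 3 was left out (adjusted p 0.0738 to 0.121). Among 16 HSP70 co-chaperones, 3 were higher: GAK, which uncoats clathrin, at 0.49 (adjusted p 0.0364), the ubiquitin ligase STUB1 at 0.44 (0.0458) and SGTA at 0.39 (0.0398). Of 13 HSP90 co-chaperones, CDC37, which brings kinases to HSP90, was higher at 0.39 (0.0439). On the deposited scale STUB1, SGTA and CDC37 changed sign (-0.05, -0.08 and -0.10). GAK was lost without any 1 library other than domestic pig 2 (0.0790 to 0.106), STUB1 (0.0727 to 0.126) and SGTA (0.0687 to 0.121) without any 1 other than domestic pig 3, and CDC37 without any 1 of the 6 (0.0705 to 0.127). Of 11 chaperonin CCT and prefoldin genes, which fold actin and tubulin, 0 passed by limma. Of 6 tested immediate early genes, which respond to activity and handling, 0 passed after rescaling and 1 was lower on the deposited scale.

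Circular RNAs (circRNAs) are closed loops formed when a splice donor joins an upstream acceptor, and they give a second readout of the same genes. Of 11375 listed circRNAs, 30 lay in 18 of the 63 chaperone genes, and the other 45 had none. HSPA4L held the most, with 6, and DNAJC2, DNAJC6 and DNAJC10 held 3 each. Hosts were taken by position without regard to strand, and 1 of the 6 in HSPA4L also lay within LOC102167943. Their back-splice reads summed to 60, 75 and 45 in wild boar 1 to 3 and to 87, 58 and 99 in domestic pig 1 to 3, or 0.128% to 0.159% of all back-splice reads per wild boar library and 0.120% to 0.137% per domestic pig library. Of the 23 tested, 0 passed by limma, beside 0.134% of all 9709 tested circRNAs. An unadjusted p under 0.05 by limma was reached by 3 of the 23 and by 1408 of the 9709. Their median log2 fold change was -0.47, beside -0.45 for all tested circRNAs.

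The 3 most abundant of them came from DNAJB6, HSPA13 and DNAJC6. Positions come from the deposited table, with 1 added to each start, and no build is named for it. The circRNA of DNAJB6 (chr18:1475203-1481335, minus strand), a DNAJ protein that holds back protein aggregation, gave 15, 10 and 10 reads in the wild boar libraries and 18, 8 and 12 in those of domestic pig, with overlapping groups. That of HSPA13 (chr13:179314546-179316673, minus strand) had 7, 5 and 1 against 16, 8 and 7, a log2 fold change of -1.37 (SE 0.542, adjusted p 0.247). That of DNAJC6 (chr6:147007242-147013724, minus strand) had 1, 8 and 4 against 3, 7 and 12, at -0.89 (adjusted p 0.528). The recovered reads are the smallest whole solution, and they reached 18 in a library at most among circRNAs of chaperone genes.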

How the data were processed

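RNA came from brain samples of 3 wild boar and 3 domestic pig libraries. Per the labels' protocols, Trizol extraction and Ribo-Zero removal of ribosomal RNA came before stranded TruSeq library preparation. BWA 0.7.17 and STAR 2.6.0c appear in the submitters' processing notes, with no statement of what each did. Not given in the sources used here are the build, the annotation, how circRNAs were called and whether counting used strand. Both deposited tables hold TPM as the authors computed it, per protein-coding gene and per circRNA, in 1 column per library, and 0 further sample columns were left unused. TPM keeps no depth for genes.

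Gene TPM was divided by median-ratio factors from the 10105 genes at a TPM of 1 or more in all 6 libraries (log2 factors from -0.80 to 0.50). Genes that reached a deposited TPM of 1 in 3 or more libraries (11752) were tested on log2(TPM + 1) with limma 3.58.1 in R 4.3.3, with a mean-variance trend, two-sided, and Benjamini-Hochberg adjustment over all of them at 0.05. The circRNAs above 0 in at least 3 libraries were tested on log2(deposited TPM + 0.045), without rescaling between libraries. Their deposited TPM came out as whole back-splice reads for all 11375 (relative tolerance 0.0001), between 33360 and 72167 per library. These reads are the smallest whole solution, a lower bound, and cover counting error only. Hosts were taken by position in RefSeq genes of Sscrofa11.1, which held 99.31% of circRNAs, against 47.24% after a shift by 1000000 bases.

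On simulated data with the 11752 genes of this comparison, log2 changes of 0.5 were recovered in 18% and of 1 in 78%. Only a small part of these genes was changed in the simulation, whereas 2303 passed in the data. The adjustment was therefore stricter there, and these 2 shares do not give the sensitivity of the gene tests above. With the 9709 circRNAs, changes of 2 were recovered in 25% and of 4 in 76%.

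The members and lists were chosen with earlier results of these data known, and the ratios between members after their values were seen. Named were all members that passed on either scale, the tested heat-inducible members, the 2 of lowest p in each other list, the 5 most abundant members, passing genes of each pathway list, and the 3 most abundant circRNAs. Of the listed names, 12 chaperone, 7 pathway and 8 marker names matched no identifier and are not analysed here. Promoter and protein features were not analysed here. Alternatives were deposited TPM, a common protein-coding sum, quantile normalization, another pseudocount, other filters, no trend, a replicate block and leaving out each library. Same-numbered libraries correlated at 0.11, -0.08 and -0.16 in their deviations from the group means, so the numbers were not taken as pairs.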

Additional observations from a re-analysis of the deposited data

How the results depend on the processing

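Of the 14 members that passed, 1 did so on deposited TPM, 7 on a common protein-coding sum and 9 without the filter on low values, and 6 to 12 when 1 library was left out. Members passing as higher (7) became 0 on deposited TPM and 4 on the common sum, and 3 to 7 with 1 library left out. Members passing as lower (7) became 1 on deposited TPM, 3 on the common sum and 4 without the filter, and 3 to 7 with 1 library left out. With the replicate block, 9 members passed, 5 higher and 4 lower. The numbers do not pair the libraries, so this is not read as a weaker effect. No circRNA of a chaperone gene passed in any setting run, the block included (0 in each). Over all genes, 2303 passed (1009 higher, 1294 lower), against 188 (16 and 172) on deposited TPM, 1145 on the common sum, 1250 with the block and 774 to 2204 with 1 library left out. With quantile normalization DNAJA1 (adjusted p 0.0227) and HSPA4 (0.0459) also passed.

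Directions turned in these cases. On deposited TPM, CDC37 was at -0.10, DNAJB1 at -0.42, HSP90AB1 at -0.41, HSPA8 at -0.50, HSPB8 at -0.00016, HSPE1 at -0.32, SGTA at -0.084 and STUB1 at -0.052. With quantile normalization, HSP90AB1 was at -0.14, HSPA8 at -0.18 and HSPE1 at -0.042, and on the common sum HSPA8 was at -0.0083. Without wild boar 1, HSP90AA1 was at 0.056 and HSPA8 at -0.029. DNAJB1 was at -0.057 without wild boar 2, and HSPA8 at -0.0048 without wild boar 3. DNAJB1 was at -0.0058 without domestic pig 1, and without domestic pig 2 HSP90AA1 was at 0.037, HSPA8 at -0.13 and HSPE1 at -0.024. With 1 library left out, values ran from -0.057 to 0.20 for DNAJB1, -0.11 to 0.056 for HSP90AA1, -0.13 to 0.15 for HSPA8 and -0.024 to 0.31 for HSPE1. Of the genes above, CDC37, HSPB8, SGTA and STUB1 had passed after rescaling. The cause was not tested. How far depth limits the circRNA calls was not tested.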
